A study of Mus musculus with 2 samples.

Results

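Immature neutrophils of mouse bone marrow were 812 barcodes of 1 single-cell RNA library, out of 6458 barcodes in that library and 8980 in the series. They were chosen by 4 criteria read on their own UMIs (unique molecular identifiers, each standing for 1 captured transcript). Mitochondrial transcripts had to be under 10% of UMIs, S100a8 and S100a9 together at least 15%, Mmp8, Mmp9, Retnlg and Cxcr2 together under 3 UMIs, and Fcnb at least 1 UMI. The 812 barcodes were 12.6% of the library's barcodes (exact Clopper-Pearson 95% interval 11.8 to 13.4%) and held 13.6% of its UMIs. Intervals here and below cover counting error only.

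The series compared marrow cells of naive mice on the C57BL/6 background that were sorted in separate ways. One library held CD45+ CD3- Ly6G- cells of C57BL/6 mice, pooled from 3 animals, and is called the marrow library here. The other held CD45+ cells expressing GFP in Car1-GFP reporter mice, also pooled from 3 animals. The design gives 10000 sorted cells as the input to the droplet instrument, and ages were not given in the sources used here. Because the sort kept Ly6G- cells, the marrow library is a limited source of later neutrophils, which carry Ly6G on their surface, and none of its groups stands for mature blood neutrophils. With 1 pooled library there was no replicate, so no test between groups was made and every comparison describes these cells of this library.

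Members were set against 3 groups of the same library. Maturing neutrophils were the 520 barcodes with the same S100a8 and S100a9 share but at least 3 UMIs of Mmp8, Mmp9, Retnlg and Cxcr2. Primary granule progenitors were the 172 barcodes under 15% S100a8 and S100a9 in which Mpo, Elane, Prtn3 and Ctsg made up at least 2% of UMIs. The other marrow barcodes were the remaining 5627, after 19 were left out by the mitochondrial limit, and include the maturing neutrophils, the progenitors and 832 barcodes that met the S100 criterion with under 3 late-gene UMIs but had no Fcnb UMI. All of these groups were cut from the same counts that are compared below, so the ratios are descriptions of the groups and not independent evidence that they differ.

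Neutrophils build their granules in a fixed order. Promyelocytes make primary granules filled with myeloperoxidase and the serine proteases elastase, proteinase 3 and cathepsin G. Myelocytes and metamyelocytes then make secondary granules, whose proteins include lactoferrin (Ltf), the cathelicidin Camp, neutrophilic granule protein (Ngp) and lipocalin 2 (Lcn2), under the transcription factor C/EBP epsilon (Cebpe). Gelatinase granules with Mmp9 follow in band cells, and division ends as cells leave the myelocyte stage. Fcnb encodes ficolin B, a soluble lectin made by immature myeloid cells.

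The markers matched the neutrophil part of the label. Camp, Ngp, Chil3 (a chitinase-like protein) and Cebpe, the 4 markers that the criteria did not use, were all higher in members than in the other marrow barcodes. The groups most like members carried such transcripts at similar levels. The secondary granule list, which holds Camp, Ngp and Chil3, summed to 111370 CPM in members and 103456 CPM in maturing neutrophils. It summed to 119129 CPM in the 832 S100a8/S100a9-rich barcodes without Fcnb. Camp reached 49151 CPM (UMIs of the gene per 1000000 UMIs of the group, summed over its barcodes) in immature neutrophils and 11442 CPM in the other barcodes. Ngp reached 31287 CPM in immature neutrophils and 7629 CPM in the others, a log2 ratio of 2.04. Cebpe reached 537 CPM in immature neutrophils and 141 CPM in the others, a log2 ratio of 1.93. Markers of other marrow lineages were low: summed levels over 12 erythroid genes were 276 CPM in members and 2898 CPM in the other barcodes, and 10 plasmacytoid dendritic genes gave 154 and 662 CPM in members and other barcodes. The monocyte list summed to 1615 CPM in members and 4470 CPM in the others, and 928 CPM of the members' sum was Ly6c2, a surface gene that neutrophil precursors also express. In maturing neutrophils the monocyte, erythroid and plasmacytoid lists summed to 1783, 353 and 254 CPM. Alas2, Cd3e, Gata3, Xcr1, Clec9a, Fcer1a, Epx, Ppbp and Vwf had 0 UMIs among the 1181683 UMIs of members, where 3 counts, the limit that a 0 allows, correspond to 2.54 CPM. These were named because they were at 0, and other genes of the same lists were detected in members. Nkg7 had 188 UMIs, Hdc 119, Cd74 98 and Ear2 46. The NK and T list summed to 252 CPM in members and 497 CPM in the other barcodes. The basophil and mast list gave 234 and 1045 CPM, and the macrophage list 96.5 and 128 CPM.

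Facts of the library bear on how the members were found. They carried a median of 1380 UMIs (range 593 to 3984) and 546 genes, against 833.5 UMIs in maturing neutrophils, 1864 in progenitors and 996 in the other barcodes. Their share changed with depth: members were 13.4% of the 588 S100a8/S100a9-rich barcodes under 800 UMIs and 60.5% of the 215 with 2000 UMIs or more. To gauge free RNA, barcodes under 15% S100a8 and S100a9 were taken that had at least 3 UMIs of Siglech, Ccr9, Cox6a2 and Klk1 (285, plasmacytoid dendritic) or of Klf1, Car1, Car2, Gata1, Blvrb and Rhd (283, erythroid). Free RNA was present: plasmacytoid dendritic barcodes (median 777 UMIs) held a median of 1.49% S100a8 and S100a9, and 4.21% of them had 3 or more late-gene UMIs, as had 24.4% of erythroid barcodes (median 2661 UMIs). Fcnb gave a UMI in 1.75% of those dendritic barcodes and in 7.42% of those erythroid barcodes, whereas every member has at least 1 by the criteria. The 2 libraries shared 14 barcode sequences, 1 of them among members. In the Car1-GFP library 0 of 2522 barcodes met the same criteria, which allows a share of up to 0.119%, and its highest S100a8 and S100a9 share was 25.7%.

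**Figure D1:**
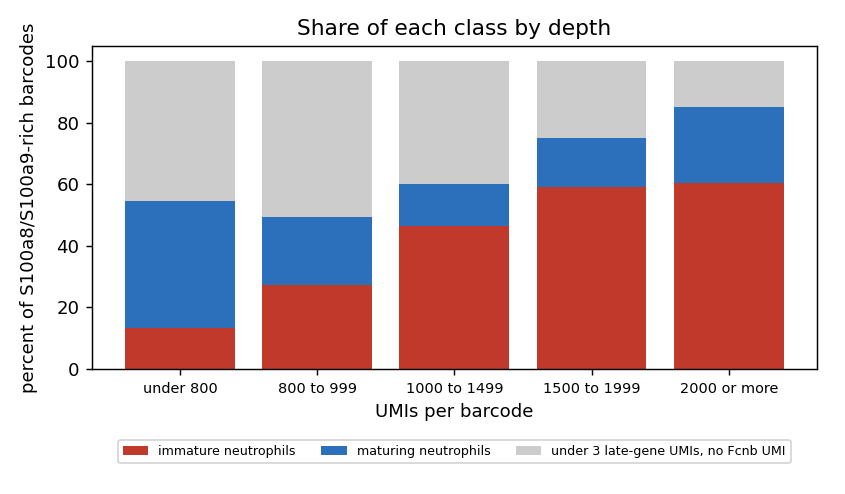
Share of each class (y axis, percent) among marrow barcodes with at least 15% S100a8 and S100a9, by UMIs per barcode (x axis). Immature neutrophils are 13.4% of the shallowest barcodes and 60.5% of the deepest.

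The criteria cut through continuous values. Fcnb was at 1 UMI in 351 members (43.2%), at 2 UMIs in 194 and at 5 or more in 100, with a highest value of 14. Late-gene UMIs were 0 in 364 members, 1 in 315 and 2 in 133, while 136 maturing neutrophils stood just outside at exactly 3. S100a8 and S100a9 made up a median of 30.7% of UMIs in members (15.1 to 51.6%), 34.2% in maturing neutrophils and 2.20% in progenitors. Members with 2 late-gene UMIs had 4595 CPM of Ltf and 151 CPM of Ly6g, against 5605 and 212 CPM in those just outside with 3. Across the Fcnb limit, members with 1 UMI had 5629 CPM of Ltf, 7294 CPM of Lcn2 and 176 CPM of Ly6g, and barcodes with 0 UMIs had 6099, 7458 and 287 CPM of the same genes. The DNA replication list summed to 1758 CPM in members with 1 Fcnb UMI and 1029 CPM in barcodes with none. At the S100 limit, the 24 members at 15 to 17% had 2148 CPM of Elane and the 28 barcodes at 13 to 15% had 2792 CPM.

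Compared with maturing neutrophils, immature neutrophils were set apart by genes of DNA synthesis and division on the high side and by genes of the late cytoplasm and surface on the low side, while secondary granule genes stood at similar levels. Of 5682 genes with at least 20 UMIs over both groups, leaving out the genes of the criteria, 446 (7.85%) were higher in immature neutrophils by 2-fold or more and 292 (5.14%) were lower by as much. The interval of the ratio also left out 1 for 277 of the higher genes (4.88%) and 250 of the lower ones (4.4%). The median log2 ratio over these genes was 0.07. The criteria used this contrast, so no count below is read as support for it.

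Of the 26 DNA replication genes, 15 were at least 2-fold higher in immature neutrophils and 0 lower, with a median log2 ratio of 1.17. Lig1, the ligase that joins Okazaki fragments, stood at 209 CPM in immature neutrophils and 55.6 CPM in maturing ones (log2 ratio 1.91, 95% interval 1.38 to 2.49). Pcna, the sliding clamp of the replication fork, stood at 192 CPM in immature neutrophils and 64.3 CPM in maturing ones (1.58, 1.07 to 2.12). Tk1, which makes thymidine phosphate for DNA synthesis, had a ratio of 1.62, and Ccne2, a cyclin of S phase entry, had 1.52. Among all genes with at least 50 UMIs, the 15 highest ratios were led by Rev1 and B230118H07Rik (2.39 each). They also held the replication checkpoint gene Clspn (2.31), the replication kinase Cdc7 (2.16, 0.84 to 3.85) and the fork protection gene Rif1 (1.75). These 3 rested on 6, 5 and 9 UMIs in maturing neutrophils, and Rev1 and B230118H07Rik on 5 each. Efr3a (2.05) and Pqbp1 (1.90) were among the 15 too. Of the 15, only Lig1 and Tk1 are on the replication list.

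Of the 26 mitosis genes, 8 were at least 2-fold higher and 0 lower, with a median of 0.78. Kif11, a motor of the spindle, stood at 94.8 CPM in immature neutrophils and 34.8 CPM in maturing ones. Top2a, the topoisomerase that untangles replicated chromosomes, stood at 492 CPM in immature neutrophils and 249 CPM in maturing ones (log2 ratio 0.98, 0.72 to 1.26), and Mki67 had a ratio of 0.96. After each barcode was thinned to 500 UMIs, which left none out, at least 2 UMIs of the replication list were found in 27.7% of immature neutrophils and 7.69% of maturing ones, against 59.7% and 19.8% before thinning. For the mitosis list the thinned shares were 42.6% in immature neutrophils and 15% in maturing ones. Plasmacytoid dendritic barcodes gave 8.42% for the replication list and 9.82% for the mitosis list. Such shares were not particular to members. Progenitors gave 29.7% for the replication list and 32.0% for the mitosis list, and erythroid barcodes gave 59.7% and 57.6%. The S100a8/S100a9-rich barcodes without Fcnb gave 10.1% and 32.2%.

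These differences were smaller among deeper barcodes. Among barcodes of at least 1000 UMIs, 627 immature (median 1529) and 192 maturing (median 1586), the median log2 ratio was 0.77 for the replication list and 0.23 for the mitosis list. Under 800 UMIs stood 79 of the 812 immature barcodes and 243 of the 520 maturing ones.

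Genes that later neutrophils are known for were lower in members. Of 23 measured late neutrophil genes, 13 were at least 2-fold lower and 0 higher (median log2 ratio -1.05). Ly6g, the surface antigen used in the sort, stood at 125 CPM in immature neutrophils and 394 CPM in maturing ones (-1.66, -1.96 to -1.35). Csf3r, the receptor for granulocyte colony-stimulating factor, stood at 46.5 CPM in immature neutrophils and 116 CPM in maturing ones (-1.32). Selplg, a glycoprotein ligand used in rolling on endothelium, had a log2 ratio of -1.41. Stfa1, a cysteine protease inhibitor, had -3.40 from 8 and 41 UMIs in immature and maturing neutrophils.

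Other genes with the lowest ratios included the matricellular protein Thbs1 (10.2 CPM in immature neutrophils and 118 CPM in maturing ones, -3.54), the formyl peptide receptor Fpr2 (-2.19), the calcium-binding protein S100a6 (405 and 1891 CPM in immature and maturing neutrophils, -2.22) and the protease inhibitor Slpi (-1.84). Slpi was the 1 secondary granule gene of 15 measured that was 2-fold lower. Of 6 measured genes of gelatinase granules and secretory vesicles, 3 were 2-fold lower, namely Timp2, Adam8 and Fpr2. Of 19 homing and adhesion genes 6 were 2-fold lower and 0 higher (median -0.53), and of 6 immediate early genes 3 were 2-fold lower and 0 higher (median -0.86). Ribosome biogenesis genes gave 0 of 13 at 2-fold in either direction (median 0.31).

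Secondary granule genes differed little between the 2 groups. Their median log2 ratio was -0.20, and 14 of 15 lay within 2-fold. Ngp stood at 31287 CPM in immature neutrophils and 28453 CPM in maturing ones (log2 ratio 0.14), Lcn2 at 6042 CPM in immature and 7025 CPM in maturing ones (-0.22) and Ltf at 4548 CPM in immature and 6423 CPM in maturing ones (-0.50, -0.56 to -0.44). Camp (0.31) and Chil3 (0.53) were higher in the immature group. Per 100 UMIs of S100a8, Ltf gave 2.52 UMIs in immature neutrophils and 3.43 in maturing ones, and Camp gave 27.2 in immature neutrophils and 21.2 in maturing ones.

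The primary granule list summed to 10466 CPM in immature neutrophils and 10504 CPM in maturing ones. Most of the members' sum was the lysozyme gene Lyz2, so the sum says little of the other genes. Of 12 measured genes, 2 (Elane and Prss57) had a higher level by 2-fold or more and 0 a lower one (median 0.31). Elane, neutrophil elastase, stood at 654 CPM in immature neutrophils and 319.8 CPM in maturing ones (1.03, 0.80 to 1.27), and Prtn3 had a ratio of 0.76. Plasmacytoid dendritic barcodes held 323 CPM of Elane and erythroid barcodes 139.8 CPM, and the part of free RNA in the neutrophil levels was not tested. Among transcription factors, the repressor Gfi1 rested on 26 UMIs in immature and 4 in maturing neutrophils (1.66, 0.13 to 3.64, turning to -0.018 among cell barcodes with 7 or fewer G or C bases), and Cebpe stood at 537 CPM in immature and 391 CPM in maturing ones (0.46).

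**Figure D2:**
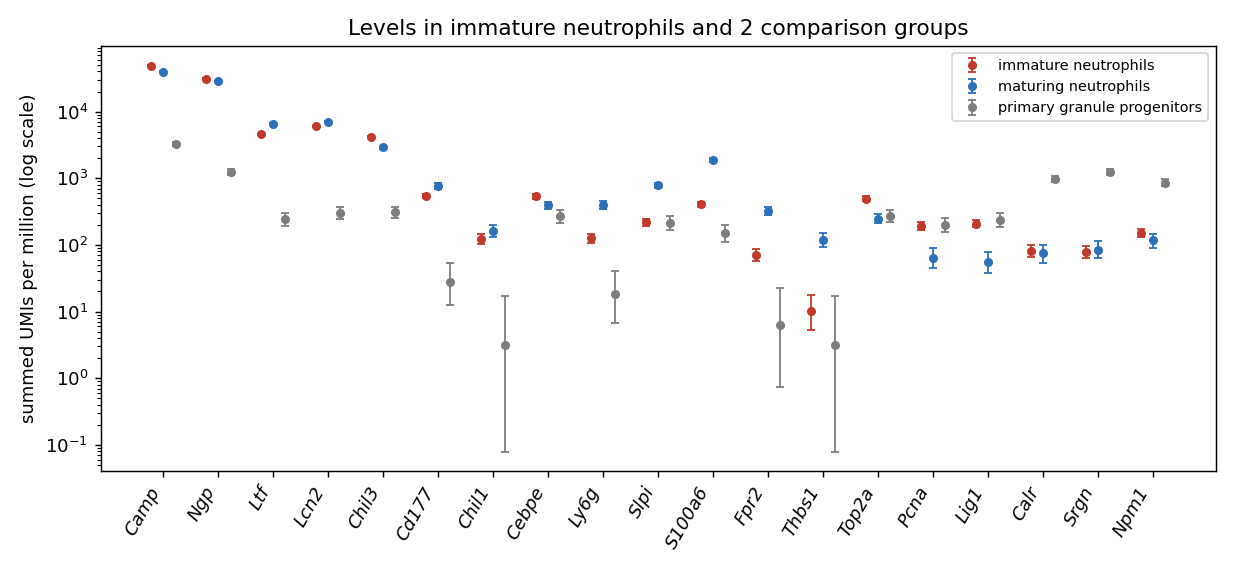
CPM (log scale) of 19 genes in immature neutrophils, maturing neutrophils and primary granule progenitors, with exact Poisson 95% intervals. Secondary granule genes such as Camp and Ngp lie together in both neutrophil groups and far lower in progenitors, whereas Thbs1, Fpr2 and S100a6 are lower in immature than in maturing neutrophils.

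Compared with primary granule progenitors, immature neutrophils had secondary granule and NADPH oxidase genes at much higher levels and ribosome biogenesis and secretory pathway genes at much lower ones. Of 5564 genes measured, 544 (9.78%) were higher in immature neutrophils by 2-fold or more and 1326 (23.8%) lower by as much, with a median log2 ratio of -0.34. The interval also left out 1 for 350 of the higher genes (6.29%) and 1185 of the lower ones (21.3%). S100a8 and S100a9 take up a median of 30.7% of a member's UMIs and lower the share left for all other genes. A trimmed mean of M values (TMM) factor added 0.53 to every log2 ratio in this contrast and turned the split into 1105 higher and 610 lower, and leaving the 7 criterion genes out of the totals gave 1014 and 675.

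Of 15 measured secondary granule genes, 14 were at least 2-fold higher in immature neutrophils and 0 lower, with a median log2 ratio of 3.76. Ngp stood at 31287 CPM in immature neutrophils and 1247 CPM in progenitors (4.65, 4.51 to 4.79). Lcn2, which binds bacterial siderophores, stood at 6042 CPM in immature neutrophils and 303 CPM in progenitors (4.32). Ltf, which binds iron, stood at 4548 CPM in immature neutrophils and 241 CPM in progenitors (4.24). Cd177, a surface partner of membrane proteinase 3 in human neutrophils, stood at 539 CPM in immature neutrophils and 27.9 CPM in progenitors (4.27). Chil1 had 145 UMIs in immature neutrophils and 1 in progenitors (5.31, 2.81 to 10.62). Plasmacytoid dendritic barcodes had 1937 CPM of Ngp, 435 CPM of Lcn2 and 514 CPM of Ltf, all above the progenitors. Erythroid barcodes had 1364, 277 and 311 CPM of the same genes, with Lcn2 below the progenitors. The part of free RNA in the progenitor levels was not tested.

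Upstream sequence is shown for 3 of these genes and for 2 primary granule genes to set genes that were higher in members beside genes that defined the progenitors. Elane, one of those that defined them, stood at 654 CPM in immature neutrophils and 10998 CPM in progenitors. Each stretch is from RefSeq promoters (GRCm38.p6), runs 5′ to 3′ on the gene's strand from 250 bases before the RefSeq start, and ends before the first base that RefSeq or GENCODE M21 annotates as transcribed. Capitals mark TTNNGNAA, a C/EBP-type motif, and GAGGAA, a PU.1-type motif, searched on both strands, so that the reverse complement of GAGGAA appears as TTCCTC. N stands for any base.
Ngp, chr9:110419558-110419746, plus strand: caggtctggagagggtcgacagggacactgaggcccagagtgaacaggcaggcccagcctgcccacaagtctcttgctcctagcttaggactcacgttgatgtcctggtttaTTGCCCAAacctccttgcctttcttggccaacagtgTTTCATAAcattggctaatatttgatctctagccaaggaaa
Ltf, chr9:111019042-111019270, plus strand: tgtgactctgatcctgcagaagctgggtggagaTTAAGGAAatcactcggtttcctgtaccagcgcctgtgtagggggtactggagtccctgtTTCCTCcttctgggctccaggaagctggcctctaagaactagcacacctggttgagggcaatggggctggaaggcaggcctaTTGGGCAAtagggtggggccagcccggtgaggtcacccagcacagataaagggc
Chil3, chr3:106167565-106167814, minus strand: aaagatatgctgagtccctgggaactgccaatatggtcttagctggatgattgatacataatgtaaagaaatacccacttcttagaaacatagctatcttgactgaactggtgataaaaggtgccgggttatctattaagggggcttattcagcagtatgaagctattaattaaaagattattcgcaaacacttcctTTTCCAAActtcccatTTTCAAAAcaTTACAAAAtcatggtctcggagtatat
Elane, chr10:79886062-79886246, plus strand: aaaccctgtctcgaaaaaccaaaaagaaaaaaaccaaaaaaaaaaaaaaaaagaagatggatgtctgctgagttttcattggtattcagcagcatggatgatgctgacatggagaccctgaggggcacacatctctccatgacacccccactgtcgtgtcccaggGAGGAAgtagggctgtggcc
Ctsg, chr14:56102575-56102824, minus strand: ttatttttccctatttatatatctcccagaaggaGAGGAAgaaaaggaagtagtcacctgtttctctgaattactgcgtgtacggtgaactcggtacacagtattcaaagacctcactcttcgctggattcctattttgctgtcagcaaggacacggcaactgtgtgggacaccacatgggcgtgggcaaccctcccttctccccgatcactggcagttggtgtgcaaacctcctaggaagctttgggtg

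Within the 250 bases before the RefSeq start, the C/EBP-type motif was present in 10 of 15 secondary granule genes and 5 of 11 primary granule genes with an entry, against 36.8% of all 32851 windows of that length. The 15 with an entry are not the 15 measured above: they include Ptx3, without a UMI in members, and lack Hp. A gene counted if any of its windows held the motif (Srgn has more than 1), whereas the percentages are shares of windows. The PU.1-type motif was present in 6 of the 15 secondary and 7 of the 11 primary granule genes, against 23.3% of windows. Of the 4 genes that defined the progenitors, Mpo, Elane, Prtn3 and Ctsg, 4 held the PU.1-type motif and 0 the C/EBP-type motif. The window of Camp held neither motif. By GENCODE M21 the windows of Prtn3 and Lcn2 lie inside the annotated genes. Those of Camp and Mpo lie mostly inside theirs. The counts therefore include bases annotated as part of a gene, unlike the stretches printed above. Matches are letters in a window and say nothing of binding. Camp, Ngp and Ltf lie on 1 chromosome, chr9, within 1195 kb (mm10), and Prtn3 and Elane lie within 13.7 kb on chr10.

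Oxidase genes were higher as well, and Cybb and Cyba, whose proteins sit in secondary granule membranes, are on both lists. Of 7 genes of the NADPH oxidase, 4 were at least 2-fold higher in immature neutrophils than in progenitors and 0 lower. Cybb, the catalytic subunit, stood at 1127 CPM in immature neutrophils and 124 CPM in progenitors (3.19, 2.73 to 3.68), and its partner Cyba at 1702 CPM in immature neutrophils and 678 CPM in progenitors (1.33). Ifitm6, an interferon-induced transmembrane family member, had the highest ratio of any gene with at least 50 UMIs (5.38, 4.33 to 6.69), with 899.6 CPM in immature neutrophils and 21.7 CPM in progenitors. Lyz2, the lysozyme gene listed with the primary granules, was higher as well, at 7757 CPM in immature neutrophils and 997 CPM in progenitors. Adhesion genes were mixed, with 7 of 17 at least 2-fold higher, among them the beta 2 integrin Itgb2 (2.42) and the tetraspanin Cd9 (2.35), and 2 lower.

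Of 18 measured ribosome biogenesis genes, 18 were at least 2-fold lower in immature neutrophils than in progenitors (median log2 ratio -2.48, or -1.95 with the TMM factor). Nop10, a protein of the snoRNPs that modify ribosomal RNA, stood at 149 CPM in immature neutrophils and 919 CPM in progenitors (-2.63, -2.90 to -2.35). Ddx21, a nucleolar RNA helicase, stood at 38.9 CPM in immature neutrophils and 275 CPM in progenitors. Gnl3, a nucleolar GTPase, had 1 UMI in immature neutrophils and 41 in progenitors (-7.23, -12.57 to -4.67). Ribosomal protein transcripts made up 8.73% of the members' UMIs, 6.76% in maturing neutrophils and 29.4% in progenitors. Of 22 secretory pathway genes, 18 were 2-fold lower and 0 higher (median -1.78), among them the endoplasmic reticulum chaperones Calr (-3.60), Pdia4 (-3.29) and Hspa5 (-2.28).

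Other genes with the lowest ratios to progenitors were Ccnd2, a cyclin of G1 (9 UMIs in immature neutrophils and 61 in progenitors, -4.63), Srgn, the proteoglycan core of granules (-3.98), and Mif, a cytokine (-3.44). Of 22 myeloid transcription factors, 5 were higher by 2-fold or more and 6 lower by as much (median 0.00, or 0.53 with the TMM factor). Myb, needed for progenitor growth, stood at 103 CPM in immature neutrophils and 585 CPM in progenitors (-2.50), and Cebpa, which directs entry into the granulocyte line, had 10 UMIs in immature neutrophils and 14 in progenitors (-2.36, -3.69 to -1.08). Gfi1 stood at 22.0 CPM in immature neutrophils and 80.5 CPM in progenitors (-1.87). Cebpe stood at 537 CPM in immature neutrophils and 269 CPM in progenitors (0.99, 0.67 to 1.33). Replication genes had a median log2 ratio of -0.52 to progenitors, which was 0.02 with the TMM factor, so no direction is given. Mitosis genes had a median of 0.48, or 1.01 with the TMM factor, with 5 of 26 at least 2-fold higher and 0 lower without it. Of 17 late neutrophil genes, 8 were at least 2-fold higher in immature neutrophils than in progenitors and 0 lower (median 0.99, or 1.52 with the TMM factor). The late neutrophil list summed to 3171 CPM in members and 1557 CPM in progenitors. It summed to 2687 CPM in plasmacytoid dendritic barcodes and 907 CPM in erythroid barcodes. The part of free RNA in these levels was not tested.

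**Figure D3:**
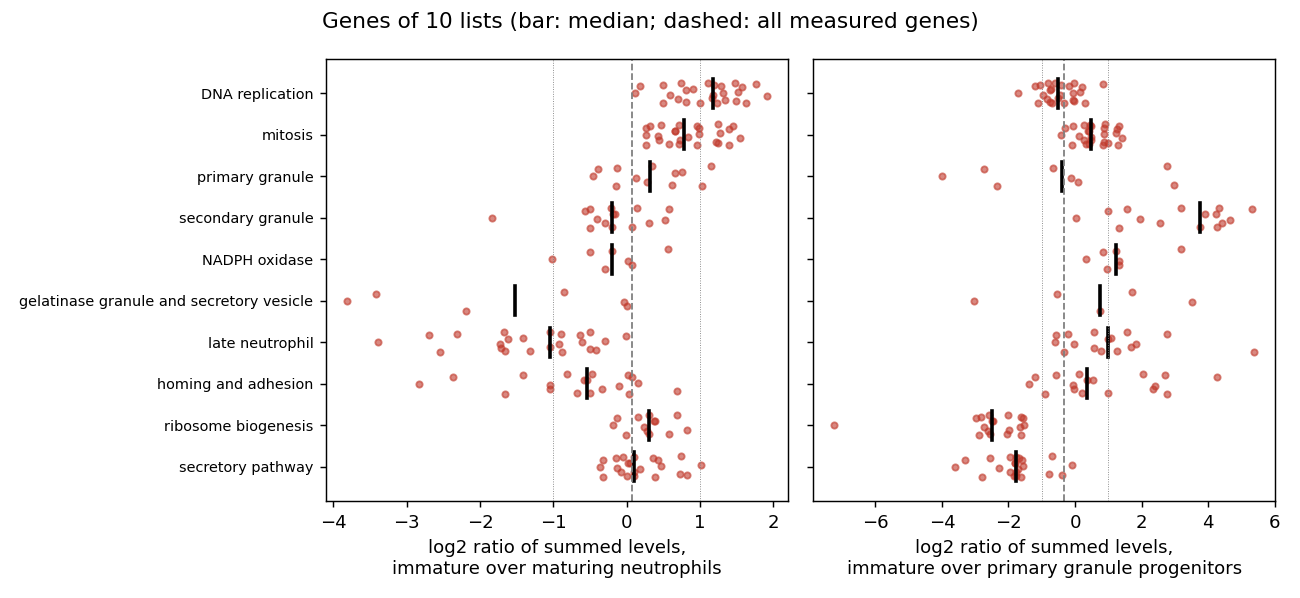
Log2 ratios of single measured genes (points) in 10 gene lists, for immature neutrophils over maturing neutrophils (left) and over primary granule progenitors (right). Black bars are list medians, dashed lines the median of all measured genes, dotted lines 2-fold, and genes with 0 UMIs on a side are left out. Replication and mitosis genes lie to the right of the dashed line on the left, and secondary granule genes lie far right and ribosome biogenesis genes far left on the right.

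Against all other marrow barcodes, 241 of 10463 genes (2.3%) were higher in immature neutrophils by 2-fold or more and 3894 (37.2%) lower by as much, or 800 and 2272 with a TMM factor that added 0.57 to each log2 ratio. The interval also left out 1 for 216 of the higher genes (2.06%) and 3034 of the lower ones (29%). The 15 highest ratios included Camp, Ngp, Cebpe and the acute phase gene Orm1 (2.08). They also included Olfml2b (60 UMIs in immature neutrophils and 77 in the other barcodes, 2.30), Ica1 (2.29), the membrane glycoprotein Prom1 (2.01), the medium-chain fatty acid receptor Gpr84 (1.96), the kinase Stk39 (1.95), the repressor Jdp2 (1.94) and adenosine deaminase Ada (2.04). In members, 387 of the measured genes had 0 UMIs. Among genes with at least 1 UMI in members and 50 over both groups, Gnl3 had the lowest ratio, with 1 UMI in immature neutrophils and 563 in the other barcodes (-6.48, -11.78 to -3.99). The replication list (2124 CPM in immature neutrophils and 2100 CPM in the other barcodes) and the mitosis list (3454 CPM in immature neutrophils and 2935 CPM in the others) had 0 genes at 2-fold in either direction.

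Members also differed among themselves. With every barcode thinned to 500 UMIs, 951 genes had a mean of at least 0.05 UMIs, and their variance over the mean had a median of 1.03, close to the 1 that counting error alone gives. In all, 14 exceeded 1.5, of which S100a8 and S100a9 are criterion genes. The others of the 14 were Actb (11.9), Elane (2.78), Malat1 (2.71), Ngp (2.28), Camp (2.24), Hist1h2ap (1.87), Ifitm6 (1.66), Lyz2 (1.64), Lcn2 (1.58), Ltf (1.55), Prtn3 (1.55) and mt-Co3 (1.51). The list thus holds primary granule genes, secondary granule genes, a histone gene of S phase and the cytoskeletal gene Actb.

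Most secondary granule genes followed were lower in members with more primary granule UMIs. After thinning, 589 members had 0 UMIs of Mpo, Elane, Prtn3 and Ctsg, 142 had 1 and 81 had 2 or more. Ltf was found in 519 of the 589 (88.1%), in 113 of the 142 (79.6%) and in 42 of the 81 (51.9%). The median S100a8 and S100a9 share was 32.2%, 27.9% and 22.5% in these classes, and the ribosomal protein share 7.57%, 9.63% and 13.9%.

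The secondary granule list summed to 118006, 104691 and 83971 CPM in these classes, while Hp (1076, 1038 and 1062 CPM) and Pglyrp1 (2733, 2562 and 2803 CPM) showed no such step. Lcn2 stood at 6771 CPM with 0 primary granule UMIs, 5346 CPM with 1 and 2977 CPM with 2 or more. Ifitm6 stood at 1075, 657 and 278 CPM in the same order, and Ly6g at 157, 68.0 and 34.7 CPM. AA467197 had 127 UMIs (155 CPM) with 0 primary granule UMIs and 0 UMIs with 2 or more. Camp moved less, at 50681, 47652 and 42770 CPM, and Cebpe was 526, 594 and 506 CPM. The replication list summed to 1931, 2235 and 3046 CPM, and ribosome biogenesis to 1564, 1859 and 2664 CPM, while the mitosis list was 3530, 3401 and 3102 CPM. Median depth was 1295, 1502.5 and 1808 UMIs in these classes, and its part in the steps was not tested, although the classes were read at 500 UMIs.

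**Figure D4:**
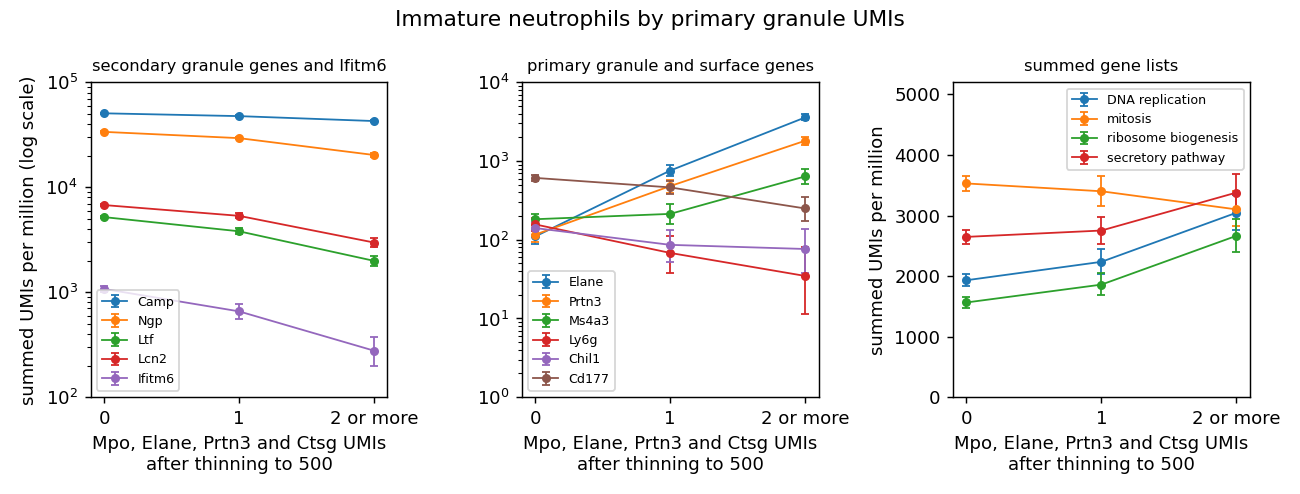
Immature neutrophils with 0, 1, or 2 and more thinned UMIs of Mpo, Elane, Prtn3 and Ctsg (x axis): CPM of single genes (log scale, left and middle) and of gene lists (right), with exact Poisson 95% intervals. Lcn2, Ltf, Ifitm6 and Ly6g are lowest in the class with 2 or more, where the replication and ribosome biogenesis lists are highest.

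Actb, the cytoplasmic actin gene, had the highest variance over the mean, and its share followed the cell barcode. It ranged from 0.169 to 13.3% of UMIs, with 410 members under 2%, 114 at 2 to 4% and 288 at 4% or more. Members whose 16-base cell barcode held 5 or fewer G or C bases had a median of 7.51%, those with 7 had 4.94%, those with 8 had 1.78% and those with 11 or more had 0.812%. Pearson's r between the number of G or C bases and the Actb share was -0.65 over the 812 members, which share 1 library. It was -0.73 in maturing neutrophils, -0.66 in plasmacytoid dendritic barcodes and -0.29 in the Car1-GFP library, where the medians were 0.393% at 5 or fewer and 0.127% at 11 or more.

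The cell barcode is a synthetic sequence, and members held a mean of 8.14 G or C bases against 7.88 in maturing neutrophils. Barcodes with 7 or fewer G or C bases were 32.6% of members and 39.0% of maturing neutrophils. The cause of the relation was not tested. Of 1129 genes with at least 100 UMIs in members, 21 were at least 2-fold higher with 7 or fewer G or C bases than with 8 or more, and 1 was 2-fold lower. The 21 included Cdkn1b (336 CPM with 7 or fewer and 82.3 CPM with 8 or more, log2 ratio 2.03), Abhd2 (1.90), Actb (1.73), Lrrc58 (1.38) and Notch2 (1.34). The log2 ratio was -0.14 for Camp, 0.01 for Ngp, -0.03 for Ltf, 0.05 for Top2a and -0.41 for Pcna (-0.85 to 0.02). It was -0.49 for Elane (-0.72 to -0.26), -0.35 for Cebpe (-0.60 to -0.10), -0.26 for Fcnb and 0.89 for Tpx2, a spindle gene (0.32 to 1.46). The relation to barcode composition was noticed after the values were seen.

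**Figure D5:**
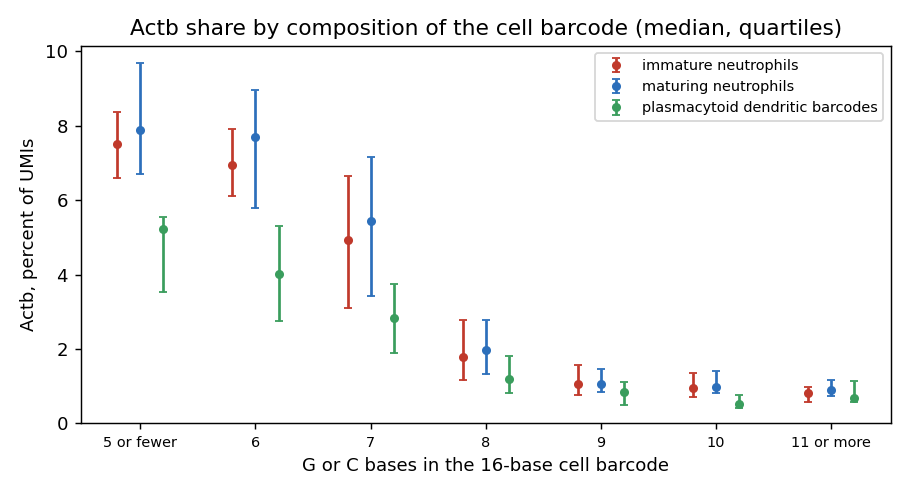
Actb share of UMIs (median with quartiles) by the number of G or C bases in the cell barcode, for immature neutrophils, maturing neutrophils and plasmacytoid dendritic barcodes. In immature neutrophils the median is 7.51% at 5 or fewer and 0.812% at 11 or more, and the other 2 groups are also lower at 11 or more than at 5 or fewer.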

How the data were processed

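Values were whole-number UMI counts per gene and barcode, as deposited, and every value of the marrow library was checked to be whole (4111922 of 4111922). Reads had been processed with Cell Ranger 2.1 on mm10, and Seurat 2 is also named, per the submitters' processing notes; its role is not given in the sources used here. Libraries used 10x v2 chemistry, which counts transcript ends, so levels do not scale with transcript length. The members, gene lists and comparisons were chosen with earlier results of these data known.

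Counts were summed per group and divided by the group's total (CPM), with exact Poisson intervals, and ratios have exact binomial intervals. A gene was measured with at least 20 UMIs over both groups and called at 2-fold. Named genes were the 15 highest and 15 lowest ratios with at least 50 UMIs, fixed marker genes, up to 6 genes per list and the 15 most variable genes; Actb and the barcode relation were added after their values were seen. The code for ratios and their intervals was checked on simulated counts. Barcodes were thinned to 500 UMIs (seed 1) for shares. Doublets were kept; Scrublet in scanpy 1.11.5 marked 2.83% of members, which an alternative leaves out. Python 3.11.15, scipy 1.17.1 and edgeR 4.0.16 (TMM only) were used. The marrow library held 8661570 UMIs. Of 27998 gene identifiers, 27645 were found in GENCODE M21. Cebpd, Mx2 and Iglc1 were not analysed here. No deposited cell annotation was used. 1 gene of the lists is not reported here.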

Additional observations from a re-analysis of the deposited data

How the results depend on the processing

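Of 108 recomputed counts of genes at 2-fold, 85 stayed within 1.5 times the value in the report and 23 did not. The barcode composition limits and the band of 1000 to under 2000 UMIs were chosen after seeing the data. The 812 members became 461 with Fcnb at 2 UMIs or more, 1644 with Fcnb not used, 534 with the criteria read on thinned barcodes, 265 at 7 or fewer G or C bases and 497 in the band. For the summed replication list against maturing neutrophils (log2 ratio 1.22), alternatives gave 1.37 at an S100 share of 20%, 0.93 and 1.60 with late genes under 2 and under 5 UMIs, 1.36 with Fcnb at 2 or more, 0.86 with Fcnb not used, 0.75 at 1000 UMIs or more, 1.93 thinned, 1.63 as a mean over barcodes and 0.88 in the band. Its median (1.17) became 1.42 at 20%, 1.57 with late genes under 5, 1.36 with Fcnb at 2 or more, 0.75 with Fcnb not used, 1.36 without the barcodes Scrublet marked, 0.77 at 1000 or more, 1.92 thinned and 1.504 as a mean. The summed mitosis list (0.78) gave 0.50 and 1.43 with late genes under 2 and under 5, 0.66 with Fcnb not used, 0.31 at 1000 or more, 1.65 thinned, 1.21 as a mean and 0.66 in the band. Its median (0.78) gave 0.57 and 1.53 with late genes under 2 and under 5, 0.23 at 1000 or more, 1.92 thinned, 1.42 as a mean and 0.64 in the band.

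Against maturing neutrophils, the 446 higher genes became 264 and 917 with late genes under 2 and under 5, 817 thinned, 792 as a mean, 138 among genes with at least 50 UMIs, 971 with 1 UMI required on both sides and 253 at 7 or fewer G or C bases. The 292 lower genes became 118 with at least 50 UMIs and 1533 with 1 UMI on both sides. Against progenitors, the 544 higher genes became 1014 without the criterion genes in the totals, 1105 with TMM, 270 with at least 50 UMIs and 295 at 7 or fewer G or C bases. The 1326 lower genes became 675, 610, 671 and 646 in these 4 settings, 3069 with 1 UMI on both sides and 882 in the band. Against the other barcodes, the 241 higher genes became 536 without the criterion genes, 800 with TMM and 627 with 1 UMI on both sides, and the 3894 lower genes 2272 with TMM. The secretory pathway median against progenitors (-1.78) became -1.31 without the criterion genes and -1.24 with TMM. Stricter and looser UMI minimums, and settings that change the barcodes, also change the number of genes measured. That number is not given here for the alternatives, so their counts cannot be read as shares of genes. The cause of the changes was not tested.

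The secondary granule median ran from 3.37 to 4.30 against progenitors and from -0.32 to -0.03 against maturing neutrophils, and the late neutrophil median from -1.37 to -0.81. Against progenitors, the ribosome biogenesis median ran from -2.53 to -1.95. Among values of at least 1 in size, the direction turned for Gfi1 against maturing neutrophils (1.66, against -0.018 at 7 or fewer G or C bases) and for conventional dendritic markers against progenitors (1.31, against -0.12 thinned). Counting smaller values too, 97 of 1285 recomputed medians of the other lists and 9 of 507 single-gene values lay on the opposite side of 0, Mpo, Ctsg, Ms4a3 and Cebpb against maturing neutrophils among them. No paired analysis was possible because each group of the study is 1 pooled library, and no replicate could be left out.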
